A study of Mus musculus with 4 samples.

Results

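Cadherins and protocadherins, the calcium-dependent adhesion proteins of the cadherin superfamily, were followed through the cells of the mouse vagal ganglia. Members were the genes whose symbol is Cdh followed by digits only or starts with Pcdh, which gave 82 of 17289 genes in the expression table, 22 Cdh and 60 Pcdh genes. Of these, 48 were clustered protocadherins (alpha, beta and gamma genes, which lie side by side on chromosome 18) and 34 were unclustered. Single cells came from the nodose and jugular ganglia of 5-week-old mice in 4 droplet libraries, which form 2 groups. Wild-type C57BL6 mice gave the libraries unsorted 1 and unsorted 2, made from the whole cell suspension. Mice with Cre at the Slc17a6 (Vglut2) locus and a Cre-dependent tdTomato gene at the ROSA26 locus gave sorted 1 and sorted 2, in which tdTomato cells were collected by flow sorting. Cre from this locus marks cells that express or once expressed Slc17a6, so the sort selects glutamatergic neurons. How many animals went into a library is not given in the sources used here, and p-values therefore reflect library-to-library variation, some of which may be technical.

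Classical cadherins bind the same cadherin on a neighbouring cell through their outermost domains, and their cytoplasmic tails are held to actin by catenins. Type I cadherins, such as E-cadherin (Cdh1) and N-cadherin (Cdh2), carry strong adhesion and sort cells into layers and tissues, whereas type II cadherins bind more selectively and differ between neuron populations. Unclustered delta protocadherins adhere weakly and signal to the actin machinery, and clustered protocadherins give single neurons a surface identity used in self-avoidance of their branches.

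The table held 1825 cells in the authors' 27 clusters: 18 nodose types (NG1 to NG18, 1459 cells), 6 jugular types (JG1 to JG6, 245 cells), sympathetic neurons (19), satellite glia (51) and endothelial cells (51). A library held 270 to 930 cells and 16147719 to 30778125 unique molecular identifiers (UMIs), each standing for 1 captured transcript. The summed level of 6 nodose markers was 22.2 to 23.1 in nodose and 0.744 to 0.995 in jugular neurons, and that of 6 jugular markers 1.73 to 2.76 and 21.1 to 33.6, in UMIs per 10000. The authors drew the clusters from these same transcripts, so a p-value between clusters tells only whether a difference recurs from library to library and is no independent evidence for it. One cell barcode was found in both sorted libraries. A level is the number of UMIs of a gene per 10000 UMIs of a cell, averaged over the cells of a library, and values written with ± are the mean and SD over libraries.

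Cadherins and protocadherins together made up 0.0742% of all UMIs (60953 of 82175350). Delta-2 protocadherins supplied 38.2% of the members' UMIs, delta-1 protocadherins 23.5%, type I cadherins 19.2%, type II cadherins 7.27% and the 48 clustered genes 9.67% in all. A single gene, Pcdh17, supplied 28.8%. By contrast 41 members, 30 of them clustered, had fewer than 100 UMIs over all cells. With every cell thinned to 10000 UMIs, a nodose neuron held a mean of 4.45 members and a jugular neuron 4.21; without thinning the medians were 10 and 9. The summed level of all members was highest in NG4 (15.6 ± 1.57) and lowest in NG12 (2.88 ± 1.14), with median depths of 38892 and 39688 UMIs per cell.

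**Figure D1:**
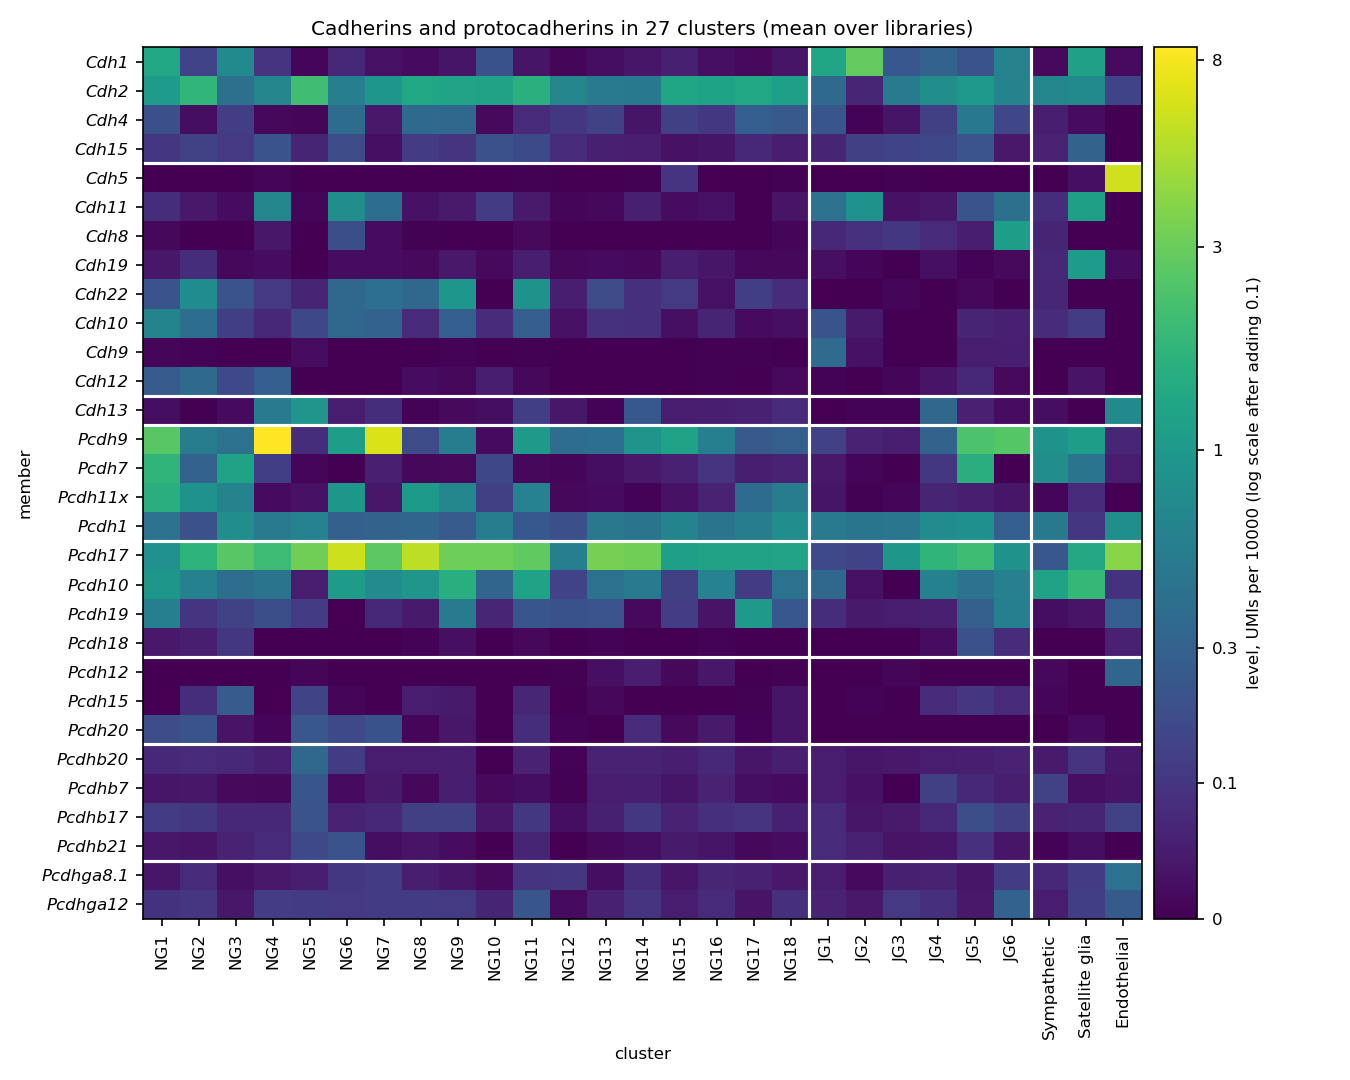
Level of the 30 members that reached 0.2 UMIs per 10000 in some cluster, as the mean over libraries with at least 3 cells of the cluster (colour, log scale after adding 0.1), in 27 clusters (columns). Pcdh17 and Cdh2 span most neuron types, while Cdh5 stands out in the endothelial column and Pcdh9 in NG4 and NG7.

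Pcdh17, a delta-2 protocadherin that collects at contacts between axons, was the most abundant member of 12 of the 24 neuron types and stood at 0.5 or more in 22 of them. Its level was highest in NG6 (6.07 ± 0.833, n = 3 libraries with at least 3 cells) and NG8 (5.49 ± 1.89, n = 4), which did not differ beyond their spread. In NG14, the largest type, 97.7% of 259 cells held a Pcdh17 UMI (exact Clopper-Pearson 95% interval 95 to 99.1, which covers counting error only), and in JG2 38.6% of 70 cells did (27.2 to 51). At 10000 UMIs per cell these shares were 85.6% and 14.3%. The lowest levels among neuron types were those of JG2 (0.15 ± 0.123) and JG1 (0.166 ± 0.0703), whose libraries overlapped. Pcdh9, a delta-1 protocadherin, led 5 neuron types, Cdh2 another 5 and Cdh1 the remaining 2.

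The region upstream of the start is shown for Pcdh17, Pcdh9, Pcdh10 and Cdh8, 4 members with strong differences between types. Each is the 250 bases before the RefSeq start on GRCm38.p6, 5′ to 3′ on the gene's strand, and capitals mark CCAAT, a box found in many promoters, or ATTGG, its other strand.
Pcdh17: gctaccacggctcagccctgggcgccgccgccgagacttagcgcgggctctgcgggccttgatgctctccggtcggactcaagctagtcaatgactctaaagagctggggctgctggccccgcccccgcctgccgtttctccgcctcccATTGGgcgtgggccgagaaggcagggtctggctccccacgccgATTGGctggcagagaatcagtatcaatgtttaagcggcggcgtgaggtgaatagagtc
Pcdh9: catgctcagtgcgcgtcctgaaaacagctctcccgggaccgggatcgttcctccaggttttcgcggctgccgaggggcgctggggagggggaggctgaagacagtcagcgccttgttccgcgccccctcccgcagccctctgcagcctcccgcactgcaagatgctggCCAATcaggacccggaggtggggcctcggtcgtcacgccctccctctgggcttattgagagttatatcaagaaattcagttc
Pcdh10: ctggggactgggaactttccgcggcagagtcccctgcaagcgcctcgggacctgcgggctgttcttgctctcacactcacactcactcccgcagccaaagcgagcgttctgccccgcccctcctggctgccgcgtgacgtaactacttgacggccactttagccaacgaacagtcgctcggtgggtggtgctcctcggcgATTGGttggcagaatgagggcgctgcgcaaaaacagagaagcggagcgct
Cdh8: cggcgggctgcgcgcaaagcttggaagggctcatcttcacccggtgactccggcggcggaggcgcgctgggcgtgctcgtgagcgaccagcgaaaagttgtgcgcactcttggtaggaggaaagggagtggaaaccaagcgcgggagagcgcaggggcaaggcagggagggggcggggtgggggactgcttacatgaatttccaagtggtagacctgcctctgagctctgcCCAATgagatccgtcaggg
The windows are chr14:84443313-84443562 (plus strand) for Pcdh17, chr14:93890680-93890929 (minus strand) for Pcdh9, chr3:45378148-45378397 (plus strand) for Pcdh10 and chr8:99416472-99416721 (minus strand) for Cdh8. Their GC content was 64.8%, 63.6%, 63.2% and 64.4%, against a median of 52.4% over 32851 RefSeq windows of that length. For 12 members a window was read at a RefSeq start within 10 bases of the GENCODE M21 start. Their GC content ran from 42.4% (Pcdh20) to 72.8% (Cdh24), and Pcdh20, Cdh20, Pcdh8 and Cdh6 lay under the median of all windows. CCAAT was found on either strand in 9 of the 12 and in 33.8% of all windows. The GC box GGGCGG (other strand CCGCCC) was found in 7, among them Pcdh17, Pcdh10 and Cdh8, and in 32.7% of all windows. TATAAA (other strand TTTATA) was found in 1, Pcdh8, and in 12.4% of all. A match is a description of the letters only.

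Nodose neurons, which arise from placodes, and jugular neurons, which arise from neural crest, were compared with the library as a block. Nodose neurons were higher in Pcdh17, Cdh2, Pcdh9, Pcdh11x, Cdh22 and Pcdh10, and jugular neurons in Cdh1, Cdh11, Cdh8 and Cdh15. These 10 of 14 members that passed the filter on low levels had an adjusted p under 0.05 (limma, two-sided, Benjamini-Hochberg over 8834 genes), 6 higher and 4 lower, while 44.3% of all genes tested did. None also reached a log2 fold change of 1, the size required for a call, which 1.28% of all genes did; at an unadjusted p under 0.05, 10 passed at any fold, and limma-voom called 8, with 13.6% of all genes. Fold changes are on the log2(level + 1) scale, which understates those of low genes, so the ratio of the mean levels is given too. Of the 14, 5 passed the filter, a mean level above 0.1, through 1 ganglion alone, namely Cdh22 and Pcdh11x through nodose and Cdh8, Cdh11 and Cdh15 through jugular neurons. Members that passed in this way had to differ, so these counts are a description and support nothing. For such members, here and in the later comparisons, an adjusted p is printed only where an alternative setting took it above 0.05. The median log2 change was 0.03 over the members and 0.01 over all genes.

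Cdh1, E-cadherin (chromosome 8, 106603351 to 106670246, plus strand), had the largest log2 change of the 14 tested members on this scale, while by the ratio of the means Cdh8 differed more. In nodose neurons of unsorted 1, unsorted 2, sorted 1 and sorted 2 its level was 0.0948, 0.103, 0.0765 and 0.0487. In jugular neurons it was 0.85, 1.37, 1.12 and 1.33 in the same order. Every jugular value was above every nodose value, and the ratio of the means was 14.4 (8.96 to 27.3 over the libraries). The log2 change, nodose minus jugular, was -0.996 (SE 0.06), just short of a call, while the sorted libraries alone gave -1.06. Only 1 nodose value, 0.103, was above the filter's 0.1, and the jugular values alone met the filter. The difference is therefore a description. Cdh1 was also high in satellite glia. The summed level of 6 satellite-glia markers was 4.55 to 27.1 in nodose and 1.6 to 12.7 in jugular neurons. That of 6 Schwann cell markers was 3.52 to 4.18 and 4.97 to 9.62, and that of 5 mural cell markers 0.013 to 0.0582 and 0.241 to 0.572; the part of such cells in the Cdh1 levels was not tested.

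Cdh11, a type II cadherin first known from bone, had a nodose level of 0.0775 ± 0.00604 and a jugular level of 0.378 ± 0.0321 (n = 4 each), a ratio of 4.88 (log2 change -0.35). Cdh8, a type II cadherin of neuron subsets, was at 0.00374, 0.00453, 0.00769 and 0.0056 in nodose neurons of the 4 libraries and at 0.209, 0.109, 0.101 and 0.397 in jugular neurons, without overlap (ratio 37.8). Of the sum of its levels over the neuron types, 62.7% lay in the jugular type JG6, so the difference is not one of jugular neurons at large. For Cdh15, muscle cadherin, the libraries did not overlap either, at 0.0729 ± 0.0199 and 0.13 ± 0.0272, but in the sorted libraries alone its adjusted p by limma was 0.0991.

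Pcdh17 was at 2.1, 3.38, 1.86 and 2.44 in nodose neurons of unsorted 1, unsorted 2, sorted 1 and sorted 2, and at 0.794, 1.58, 0.445 and 0.781 in jugular neurons. The lowest nodose library lay above the highest jugular one, and the ratio of the means was 2.72 (2.14 to 4.19 over the libraries; log2 change 0.87, SE 0.05, adjusted p = 1.55e-06 by limma). Unsorted 2 was the highest library in both ganglia and the shallowest per cell, with a median of 33395 UMIs against 53574 to 63793.5 in the others; the part of depth in this level was not tested. Cdh2, N-cadherin, stood at 1.06 ± 0.119 among nodose and 0.477 ± 0.0713 among jugular neurons, a ratio of 2.21 (log2 change 0.48). Pcdh9 was at 1.18 ± 0.117 and 0.714 ± 0.151 (ratio 1.65). Pcdh10, a delta-2 protocadherin that recruits the WAVE complex, an activator of actin branching, was at 0.573 ± 0.09 and 0.305 ± 0.115 (ratio 1.88).

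Cdh22, a type II cadherin, was at or near 0 in jugular neurons. It was at 0.243, 0.198, 0.224 and 0.292 in nodose neurons of unsorted 1, unsorted 2, sorted 1 and sorted 2, and at 0, 0.00138, 0 and 0.0056 in jugular neurons (log2 change 0.31). Pcdh11x, a delta-1 protocadherin of the X chromosome, was at 0.322 ± 0.0538 and 0.029 ± 0.0313. Pcdh1, Pcdh7, Cdh4 and Pcdh19 did not pass the test, and their libraries overlapped between the ganglia.

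**Figure D2:**
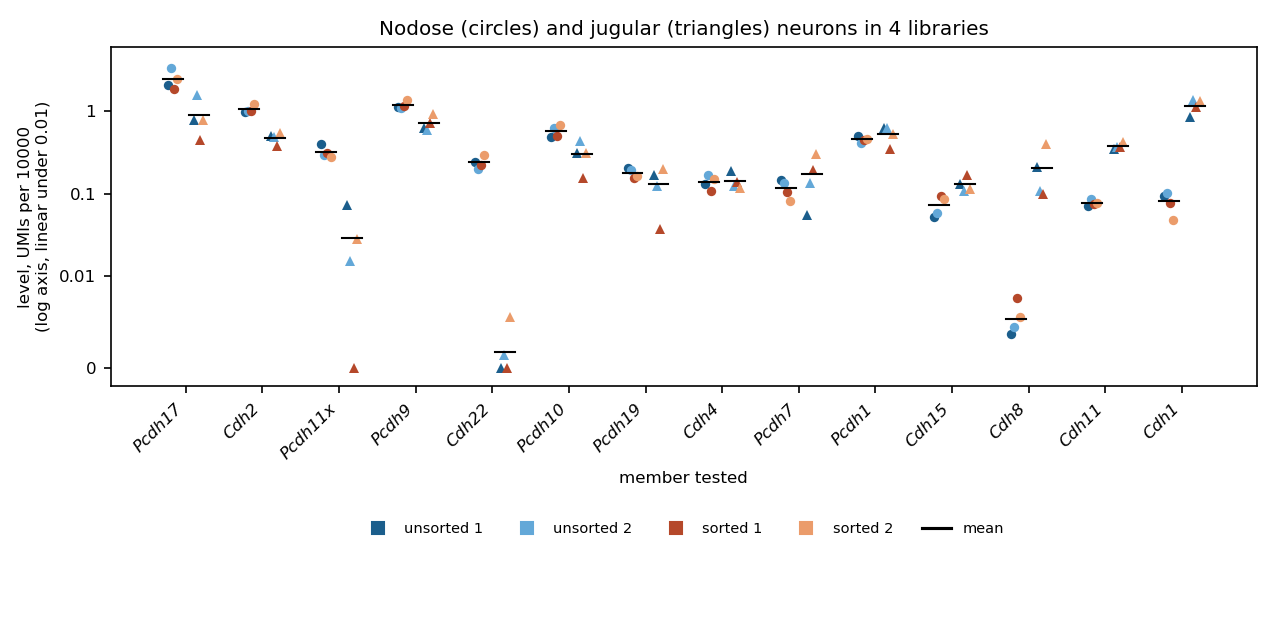
Level of the 14 tested members in nodose (circles) and jugular (triangles) neurons of each library, in UMIs per 10000 on a log axis that is linear under 0.01; black lines are means over the 4 libraries. Circles and triangles do not overlap for the 10 members named above as higher in either ganglion.

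Within each ganglion, every type with at least 10 cells in at least 2 libraries was set against the rest of its ganglion's neurons, which allowed 13 nodose types and JG2. Over these 14 fits 7 of 163 member tests were called, 5 higher and 2 lower, against 0.772% of all gene tests. At any fold, 112 had an adjusted p under 0.05, 53 higher and 59 lower, against 26% of all gene tests. The called members were Pcdh9 in 3 types, Pcdh17 in 2, and Pcdh7 and Cdh1 in 1 each; without unsorted 2, which leaves 11 types to fit, 3 member tests were called. In 39 of the 163 member tests, among them those of Pcdh7 and Cdh1 in NG1 and of Pcdh9 in JG2, the member passed the filter through 1 side alone, so these counts are a description too. NG1, NG4 and NG12 were tested in 2 libraries each, and their p-values, which rest on spread borrowed from other genes, are not printed. With so few libraries, the p-values of the other types rest in part on such borrowed spread too. This applies above all to types tested in 3 libraries, such as NG7 and JG2.

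Pcdh9 (chromosome 14, 93013410 to 93890679, minus strand) was highest in NG4 and NG7. In NG7 it was at 6.98, 6.84 and 7.08 in unsorted 2, sorted 1 and sorted 2, and at 0.899, 0.874 and 1.06 in the other nodose neurons of these libraries. The NG7 values lay close together and far above the rest, at a ratio of 7.38 (6.68 to 7.83; log2 change 2.04, SE 0.10, adjusted p = 1.66e-10 by limma; 0.534% of genes were called in NG7). With no filter on low genes, the adjusted p was 0.0552. In NG4 Pcdh9 was at 9.28 and 6.87 in unsorted 2 and sorted 2, against 0.939 and 1.07 (log2 change 2.17, SE 0.10; 0.894% of genes were called). All 57 cells of NG7 held a Pcdh9 UMI, whereas 32 of 39 NG4 cells did and 7 held Pcdh17 alone.

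At the other end Pcdh9 was at 0.0135 ± 0.0191 in NG10 (n = 2) and 0.0423 ± 0.0493 in JG3 (n = 4). In JG2 it was 27.3 times lower than in the other jugular neurons (log2 change -1.02). The jugular types JG5 and JG6 held Pcdh9 at 2.35 ± 1.27 and 2.56 ± 0.578 (n = 3 each), levels that did not differ beyond their spread.

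Pcdh17 was called higher in NG8 and lower in NG12. In NG8 its levels were 4.71, 8.2, 3.88 and 5.16 in unsorted 1, unsorted 2, sorted 1 and sorted 2, and those of the other nodose neurons 1.86, 2.96, 1.64 and 2.2. The libraries did not overlap (ratio 2.53, 2.34 to 2.77; log2 change 1.01, SE 0.07, adjusted p = 6.83e-08 by limma), and 0.537% of genes were called in NG8. NG8 was also low in Pcdh9, at 0.179 ± 0.0439 against 1.28 ± 0.126 (n = 4), and high in Pcdh11x, at 1.04 ± 0.286 against 0.256 ± 0.0402. In NG12 Pcdh17 was at 0.659 and 1.05 in the unsorted libraries, against 2.19 and 3.54; 1.47% of genes were called there.

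Pcdh7, a delta-1 protocadherin, was high in few types. It was at 1.25 and 1.82 in NG1 cells of the unsorted libraries and at 0.0762 and 0.0826 in the other nodose neurons (log2 change 1.23; 1.43% of genes were called in NG1). Over all libraries the mean was 1.74 ± 0.362 in NG1 (n = 4), 1.53 ± 0.297 in JG5 (n = 3) and 1.21 ± 0.232 in NG3 (n = 4), whose libraries overlapped, and the next type, NG2, was at 0.309 ± 0.174. None of the 30 cells of JG6, with a median of 17978.5 UMIs, held a Pcdh7 UMI, which allows up to 10% of such cells to hold one. This limit and those that follow are on cells with a UMI, not on cells that express the gene. In NG1, 30 of 43 cells held both Pcdh7 and Pcdh9, 7 held Pcdh7 alone and 6 Pcdh9 alone.

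Pcdh11x was highest in NG1 (1.55 ± 0.723) and NG8 (1.04 ± 0.286), which overlapped, and among the lowest in NG14 (0.0048 ± 0.00561). In NG14 1.16% of 259 cells held a UMI (0.24 to 3.35), against 88.7% of 124 NG8 cells (81.8 to 93.7); at 10000 UMIs per cell the shares were 0.389% and 59%. Pcdh1, the remaining delta-1 member, was the most even of the 24 unclustered members that reached 0.2 in some cluster. Its highest level, in JG5 (0.841 ± 0.342), held 7.32% of the sum of its levels over the neuron types, against a median of 20% over these members.

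Among the other delta-2 protocadherins, Pcdh19, an X-linked gene whose protein works with N-cadherin, was highest in NG17. It was at 0.539, 0.762, 0.78 and 1.88 in unsorted 1, unsorted 2, sorted 1 and sorted 2, against 0.178, 0.132, 0.121 and 0.0922 in the other nodose neurons (log2 change 0.77, SE 0.13, adjusted p = 0.00155 by limma). Sorted 2 was the highest, and all 4 values were above every comparison value. No cell of the 27 in NG6 held a Pcdh19 UMI, which allows a share with a UMI of up to 11.1%. Among the neuron types Pcdh10 was highest in NG9 (1.56 ± 0.182) and NG11 (1.21 ± 0.26), which overlapped, at 2.32 times the level of the other nodose neurons in NG11. None of the 30 cells of JG3 held a Pcdh10 UMI, which allows a share with a UMI of up to 10%. Pcdh18 and Pcdh8 were rare, with 75 and 60 UMIs in all.

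Cdh1 and Cdh2 ran opposite to each other in JG2, the largest jugular type. Cdh1 was at 3.16, 1.9 and 3.84 in JG2 cells of unsorted 2, sorted 1 and sorted 2, and at 0.67, 0.397 and 0.534 in the other jugular neurons (ratio 5.56, 4.72 to 7.19; log2 change 1.34, SE 0.11, adjusted p = 2.56e-08 by limma). In these libraries Cdh2 was at 0.0641, 0.0342 and 0.0704 in JG2 and at 0.652, 0.692 and 0.693 in the others (12.1 times lower; log2 change -0.67). Neither gene's libraries overlapped. All 70 JG2 cells held a Cdh1 UMI, and 20 held a Cdh2 UMI as well; at 10000 UMIs per cell the shares with Cdh1 and Cdh2 were 87.1% and 10%. Endothelial cells, which should lack Cdh1, gave a UMI in 1.96% of 51 cells (0.0496 to 10.4), at a median of 9670 UMIs per cell against 54809 in JG2. Cdh11 was higher in JG2 too (0.867 ± 0.263 against 0.183 ± 0.0348, n = 3), and Pcdh9, Pcdh17, Cdh2, Pcdh10, Pcdh7, Cdh4 and Cdh8 were lower. Of these, 2 members were called, Cdh1 and Pcdh9, where 1.64% of all genes were, and Pcdh17 missed the call at -0.99.

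Cdh1 was not limited to JG2. It stood at 1.28 ± 0.244 in JG1 and 1.32 ± 0.749 in NG1 (n = 4 each), which did not differ beyond their spread, and at 0.751 ± 0.173 in NG3. In the unsorted libraries it was 14.7 times higher in NG1 than in the other nodose neurons. Of 43 NG1 cells 29 held both Cdh1 and Cdh2, 12 held Cdh2 alone and 2 Cdh1 alone. Across the 24 neuron types the levels of Cdh1 and Cdh2 had a Spearman correlation of -0.52, a description of types that share their libraries. Cdh2 was at 0.5 or more in 21 of 24 types, with its highest level in NG5 (2.11 ± 0.913, n = 3), which overlapped NG2 (1.78 ± 0.439). Cdh4, R-cadherin, peaked in JG5 at 0.504 ± 0.306 (n = 3).

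Among the type II cadherins, Cdh22 was highest in NG9 (0.942 ± 0.185), NG11 (0.869 ± 0.191) and NG2 (0.775 ± 0.405), which did not differ beyond their spread. In NG11 it was at 1.13, 0.831, 0.679 and 0.833 in unsorted 1, unsorted 2, sorted 1 and sorted 2, against 0.183, 0.16, 0.197 and 0.206 in the other nodose neurons, without overlap (log2 change 0.65, SE 0.05, adjusted p = 2.02e-08 by limma). Cdh11 was at 0.864 ± 0.215 in JG2, 0.805 ± 0.167 in NG6 and 0.679 ± 0.505 in NG4, and 1 of 110 NG17 cells held a Cdh11 UMI. Cdh10 was highest in NG1 (0.651 ± 0.619), with levels of 0.39, 0.209, 1.57 and 0.436 in unsorted 1, unsorted 2, sorted 1 and sorted 2, of which sorted 1 stood apart. Cdh12 was highest in NG2 (0.368 ± 0.127) and NG4 (0.279 ± 0.0839).

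Cdh8 and Cdh9, both type II members, were each concentrated in a jugular type that had too few cells to test. Cdh8 was at 1.01, 0.622 and 1.66 in JG6 cells of unsorted 1, unsorted 2 and sorted 2, and JG6 held 62.7% of the sum of its levels over neuron types. A Cdh8 UMI was found in 66.7% of 30 JG6 cells (47.2 to 82.7) and in 0 of 110 NG17 cells, which allows a share with a UMI of up to 2.73%. Cdh9 was at 0.449, 0.176, 0.378 and 0.49 in JG1 cells of unsorted 1, unsorted 2, sorted 1 and sorted 2. It was found in 62.5% of 24 JG1 cells (40.6 to 81.2), and the next type, JG6, was at 0.0452 ± 0.0512.

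Cdh13, T-cadherin, which has no transmembrane part and binds adiponectin, was at 1.03, 0.895 and 0.864 in NG5 cells of unsorted 2, sorted 1 and sorted 2. NG4 followed at 0.524 ± 0.295 and JG4 at 0.339 ± 0.121. None of the 24 cells of JG1 held a Cdh13 UMI, which allows a share with a UMI of up to 12.5%. Pcdh15 and Cdh23, whose proteins form the tip link of hair cells, were rare: Pcdh15 reached 0.261 ± 0.113 in NG3, and Cdh23 had 10 UMIs in all.

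**Figure D3:**
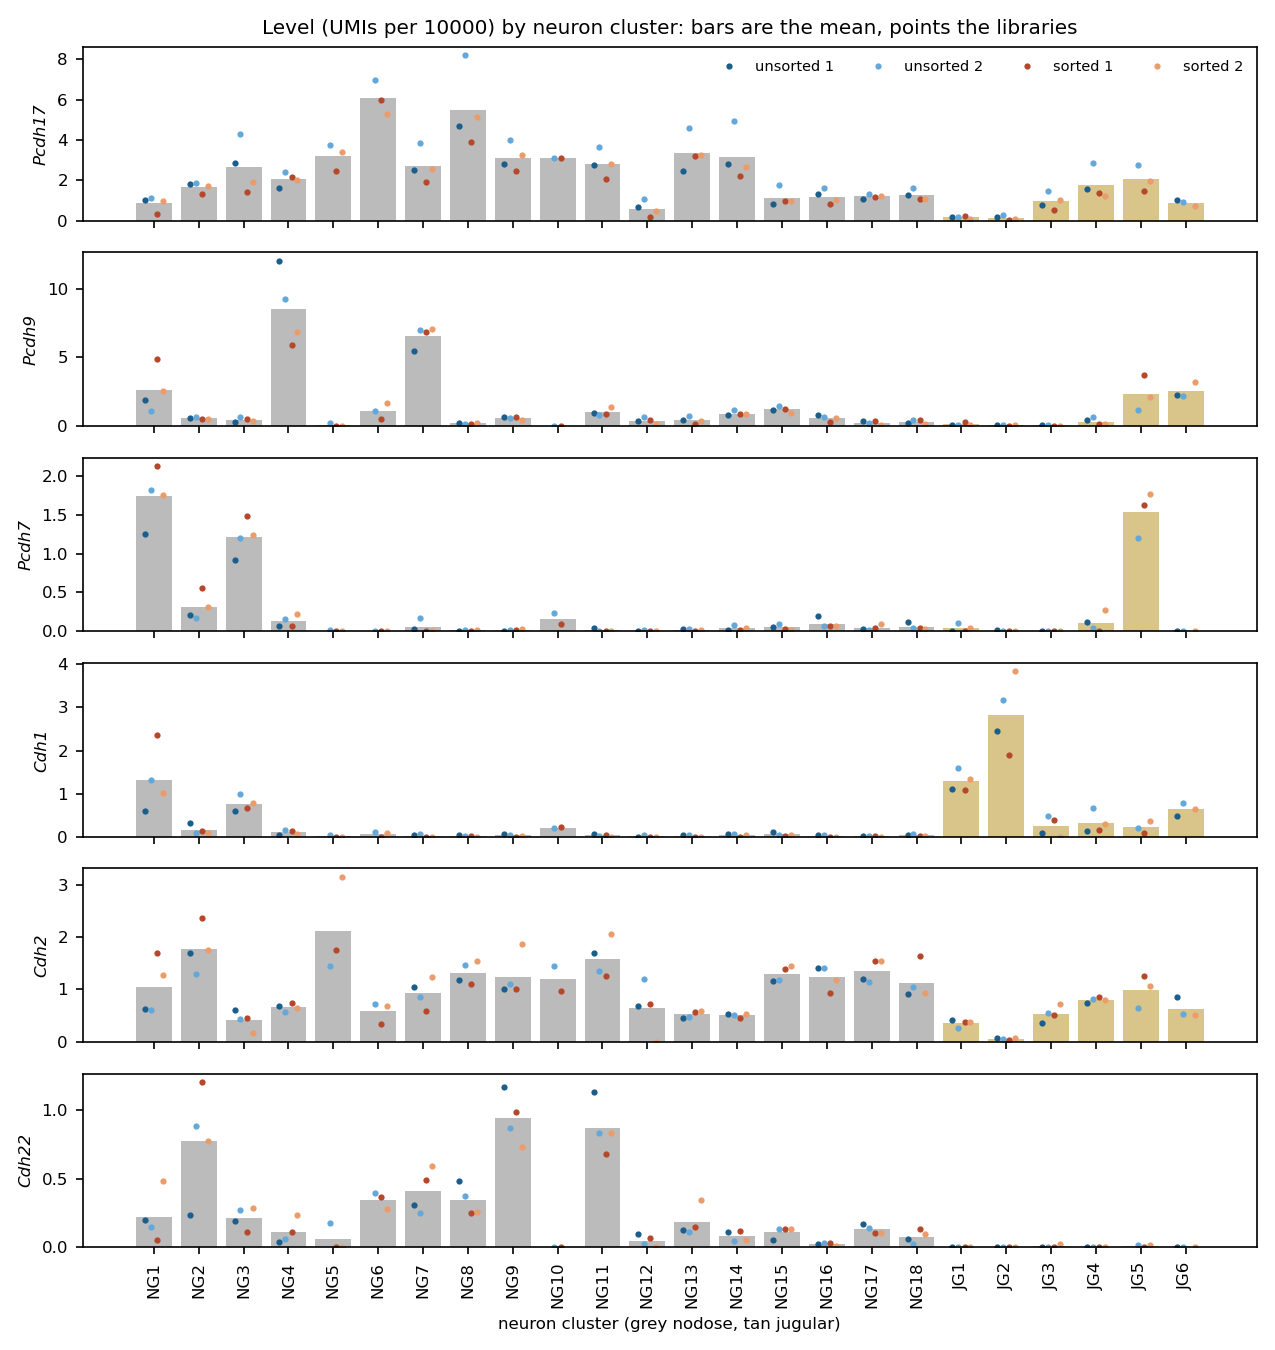
Level of Pcdh17, Pcdh9, Pcdh7, Cdh1, Cdh2 and Cdh22 in the 24 neuron types (nodose grey, jugular tan), in UMIs per 10000; bars are means over libraries and points the libraries with at least 3 cells of the type, each panel with its own axis from 0. Cdh1 is highest in JG2, where Cdh2 is lowest, and the Cdh22 bars are near 0 in the jugular types.

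Clustered protocadherins were measured at low levels and could be told apart only in part. In the GENCODE M21 annotation all 9 placed alpha genes end within 10 bases of each other, and so do all 15 placed gamma genes, while the 21 beta genes each end apart. Reads of the shared last exons do not tell alpha or gamma isoforms apart, so counts of single alpha and gamma genes are uncertain. As counted, the 21 beta genes held 6.49% of the members' UMIs, the 16 gamma genes 2.47% and the 11 alpha genes 0.714%. Whether reads of the shared exons were counted for any gene was not tested. If they were left out, the alpha and gamma shares and the clustered total are too low. These shares therefore do not rank the subfamilies by expression.

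At 10000 UMIs per cell 50.4% of 1441 nodose neurons held no clustered member, 33.7% held 1 and 16% held at least 2. Jugular neurons gave 50.6%, 31.7% and 17.7% (243 cells). Without thinning, 87.2% of nodose neurons held at least 1, with a median of 2 and a highest count of 12. The number of clustered members seen in a cell thus depended on its depth and is not the full number. Reads of the shared alpha and gamma exons may be missing from it too. A cell in which no clustered member was seen may therefore still express one.

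Summed over the clustered genes, the level was highest in NG5 (1.98 ± 0.976, n = 3) and lowest in NG12 (0.341 ± 0.197, n = 4). NG5 stood at 0.99, 2 and 2.94 in unsorted 2, sorted 1 and sorted 2, a wide spread. The highest type was 2.38 times the median type, against 5.97 times for the summed delta-1 and 2.72 times for the summed delta-2 protocadherins. For the summed type I cadherins it was 2.05 times. These sums run over 48, 4, 5 and 5 genes in that order, and the part of gene number in the spread was not tested. The clustered sums may also lack reads of the shared alpha and gamma exons. Pcdhb20 reached 0.348 ± 0.255 in NG5, where 5 of 27 cells held a UMI. Pcdhga12, the clustered gene with the most UMIs (601), was highest in JG6, at 0.67, 0.105 and 0.153 in unsorted 1, unsorted 2 and sorted 2, of which unsorted 1 stood apart. The alpha isoform Pcdhac2 was at most 0.088 ± 0.037 (JG5) and the gamma isoform Pcdhgc5 at most 0.0515 ± 0.0671 (NG2), and Pcdhgc4 was not analysed here. No clustered gene passed the filter for the comparison of nodose with jugular neurons.

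**Figure D4:**
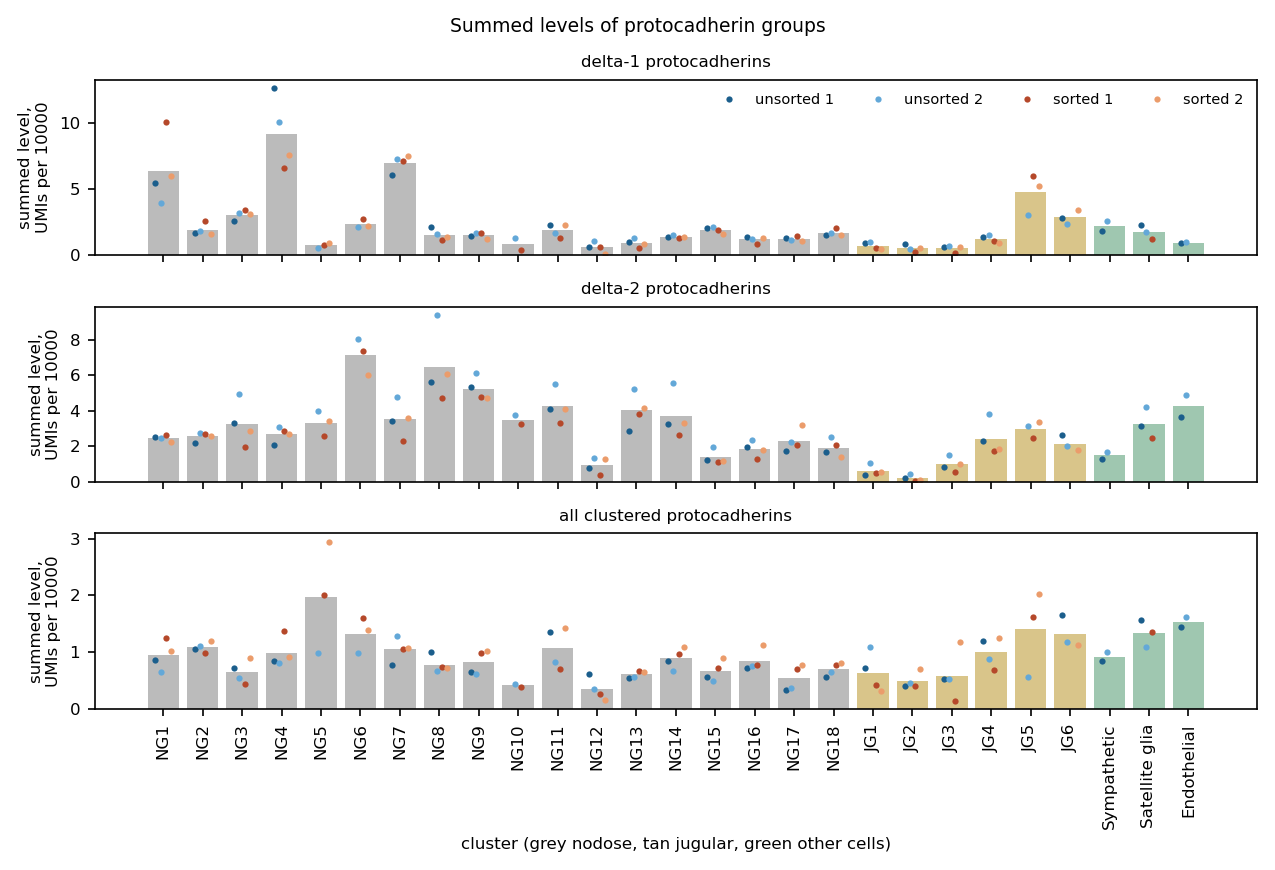
Summed level of the delta-1 (4 genes), delta-2 (5) and clustered (48) protocadherins in 27 clusters, in UMIs per 10000, with bars for the mean over libraries and points for libraries with at least 3 cells. Delta-1 bars are highest in NG4, and clustered bars lie between 0.341 and 1.98 in the neuron types. The clustered sums may lack reads of the shared alpha and gamma exons.

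Satellite glia, which wrap the neuron bodies, were compared with neurons in the 2 unsorted libraries. As for NG1, NG4 and NG12, p-values from 2 libraries rest on spread borrowed from other genes. This holds for the endothelial cells below too, and p-values are printed in both only where an alternative setting took them above 0.05. Cdh11, Cdh19 and Pcdh10 were called higher in glia, 3 of 23 members tested, where 7.81% of 10407 genes were called. At any fold 14 members had an adjusted p under 0.05, 8 higher and 6 lower, against 46.4% of genes; the median log2 change was 0.04 over the members and -0.08 over all genes. Only 10 of the 23 members were above 0.1 in at least 1 library of both glia and neurons. Cdh19 passed through glia alone, so the counts and the median support nothing. The 6 nodose markers summed to 6.56 to 8.16 UMIs per 10000 in glia, at a median depth of 9930 UMIs per cell, and 6 Schwann cell markers to 18.1 to 23.1; the part of RNA from these cells in the glial levels was not tested.

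Cdh19, a type II cadherin of glia and Schwann cell precursors, was at 0.964 and 1.37 in satellite glia and at 0.0441 and 0.0357 in neurons of unsorted 1 and 2 (ratio 29.3, log2 change 1.05). A Cdh19 UMI was found in 70.6% of 51 glial cells (56.2 to 82.5) and in 5.02% of 259 NG14 neurons (2.7 to 8.43), although the neurons were deeper. Cdh11 was at 1.68 and 1.18 against 0.113 and 0.13 (ratio 11.7, log2 change 1.11), and Pcdh10 at 2.18 and 2 against 0.461 and 0.594 (ratio 3.96, log2 change 1.02). In all 3 the glial values lay above the neuronal ones.

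Cdh1, at 1.3 and 1.56 in glia against 0.21 and 0.303, was 5.56 times higher and missed the call at a log2 change of 0.95. Pcdh9, Cdh15, Pcdh7 and Pcdhb14 were also higher in glia, at log2 changes of 0.36, 0.25, 0.18 and 0.13. Lower in glia were Pcdh1 (0.0748 ± 0.0383 against 0.481 ± 0.0501, n = 2), Pcdh17, Pcdh11x, Pcdh19, Cdh22 and Cdh4. Pcdh17 was at 0.908 and 2.22 in glia against 1.9 and 3.1 in neurons, values that overlapped between libraries, and its adjusted p of 0.0277 by limma rose to 0.237 without the library block. With median centring the adjusted p by limma was 0.137 for Cdh4 and 0.0715 for Pcdh19, and with no filter on low genes it was 0.0552 for Pcdh11x. The adjusted p of Pcdh9 and Pcdh7 was 0.0804 and 0.122 at a pseudocount of 0.1. Cdh2 was at 0.733 ± 0.0466 in glia against 0.91 ± 0.0156 and did not pass the test.

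Endothelial cells were compared with neurons in the same way. Cdh5, VE-cadherin, the adherens junction protein of vessel walls, was the 1 called member of 23, where 10.1% of all genes were called. It was at 6.72 and 5.58 in endothelial cells and at 0.0189 and 0.014 in neurons of unsorted 1 and 2 (ratio 374, 355 to 400; log2 change 2.81). A Cdh5 UMI was found in 98% of 51 endothelial cells (89.6 to 100) and in 1.16% of 259 NG14 neurons (0.24 to 3.35).

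At any fold 13 members had an adjusted p under 0.05 in endothelial cells, 6 higher and 7 lower, against 53.4% of all genes. These counts support nothing either, since only 6 of the 23 members were above 0.1 in at least 1 library of both classes. Cdh5, Pcdh12, Cdh13 and Pcdhga8.1 were above 0.1 in endothelial cells alone. Pcdh12, an endothelial protocadherin, was at 0.483 and 0.175 against 0.00888 and 0.00961 (ratio 35.6), Cdh13 at 0.325 and 1.16 against 0.0744 and 0.0804, and Pcdhga8.1 at 0.451 and 0.42 against 0.0839 and 0.0576. In each case both endothelial values lay above both neuronal ones, and Cdh13 differed most between the libraries. Pcdhga8.1 is a second row of the symbol Pcdhga8, with 413 UMIs in all against 13 in the first row. It could not be placed in the annotation, so the isoform it stands for is not known here. Pcdh17 was at 3.35 and 4.34 (ratio 1.54; adjusted p = 0.0228 by limma, 0.211 without the library block), and Pcdh1 was 1.71 times higher (adjusted p = 0.0377 by limma, 0.0836 by limma-voom). Pcdh9 was at 0.0553 and 0.0652 against 1.04 and 1.02 (17.1 times lower), and Cdh2 was 6.22 times lower. Pcdh10, Pcdh11x, Cdh1, Cdh22 and Cdh4 were lower as well. With no filter on low genes the adjusted p by limma was 0.118 for Cdh13 and 0.0778 for Pcdh12, and with median centring it was 0.061 for Cdh1. The 5 markers of mural cells, the pericytes and muscle cells of vessels, summed to 9.53 to 10.1 in these cells, against 101 to 109 for 6 endothelial markers; the part of mural cells in these levels was not tested.

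**Figure D5:**
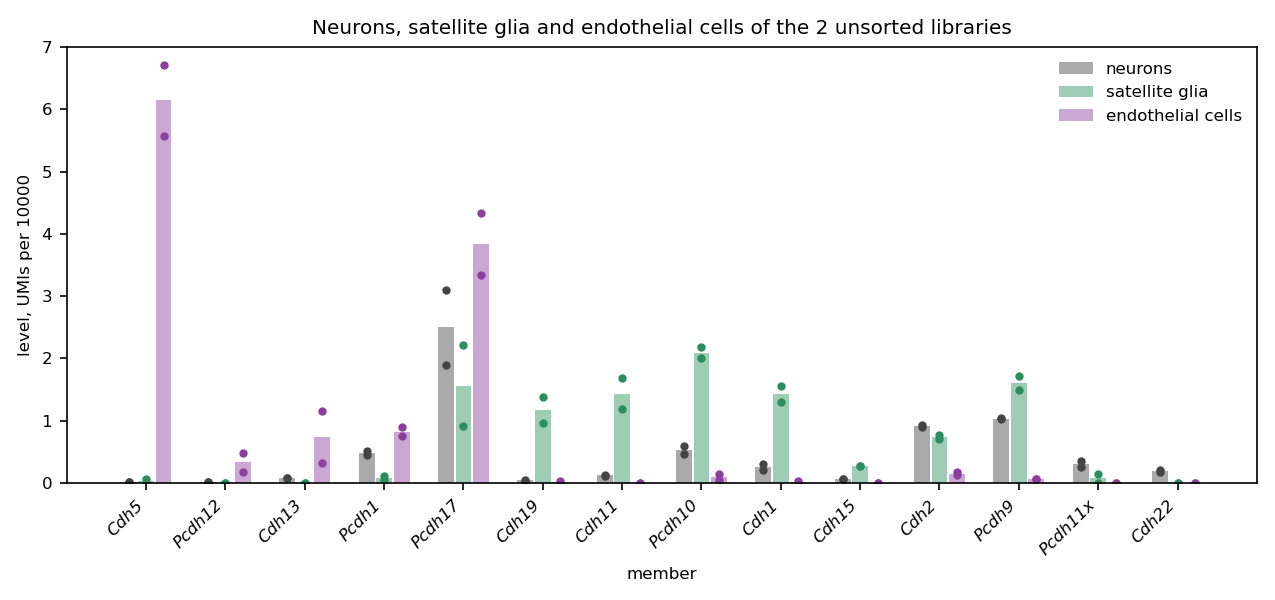
Level in UMIs per 10000 of 14 members in neurons, satellite glia and endothelial cells; bars are means over the 2 unsorted libraries and points the libraries. Cdh5 is at 6.15 in endothelial cells and near 0 in neurons, and Cdh19, Cdh11 and Pcdh10 are highest in satellite glia.

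The 19 sympathetic neurons, found in the unsorted libraries alone, held Pcdh10 at 1 and 1.41, Pcdh7 at 0.667 and 0.943 and Pcdh17 at 0.194 and 0.272 in unsorted 1 and 2. They were not tested. The 6 nodose markers summed to 11.1 to 16.8 in them and 7 sympathetic markers to 74.4 to 96.2.

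Sorted and unsorted neurons were compared with 2 libraries on each side, where sort, genotype and library batch cannot be told apart. All neuron types were pooled, and their mix differed between libraries. Nodose and jugular neurons numbered 188 and 34 in unsorted 1, 725 and 136 in unsorted 2, 299 and 25 in sorted 1, and 247 and 50 in sorted 2. No member of 14 was called by limma, against 0.404% of all genes; limma-voom called 0, and 2 had an unadjusted p under 0.05 at any fold. Cdh10 (0.141 and 0.154 in the sorted, 0.0951 and 0.0641 in the unsorted libraries; log2 change 0.09) and Cdh13 (0.138 and 0.131 against 0.0744 and 0.0804) were higher in sorted neurons, 2 of 14, where 26.2% of all genes had an adjusted p under 0.05. Both passed the filter through the sorted libraries alone. Without sorted 1 the adjusted p was 0.075 for Cdh10 and 0.12 for Cdh13, without sorted 2 it was 0.0925 and 0.0682, and without unsorted 2 it was 0.068 for Cdh10.

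Genes that work with the family were counted from 4 lists. Of 9 tested catenins and cadherin-bound proteins, 4 were higher and 1 lower in nodose than in jugular neurons at an adjusted p under 0.05, a mark that 44.3% of all genes tested reached in either direction, to be read beside each list's count below. The lower one was Jup, plakoglobin, which binds cadherin tails in place of beta-catenin, at 0.662 ± 0.0371 against 1.85 ± 0.485 (n = 4; log2 change -0.76, adjusted p = 2.53e-05 by limma), so that it was higher in jugular neurons, as was Cdh1. Ctnna2, the neuronal alpha-catenin, was higher in nodose neurons (log2 change 0.34). Of 8 tested genes of the wider superfamily 3 were higher, among them Celsr1 (0.194 ± 0.0268 against 0.0122 ± 0.0101), and 1 lower, Ret. Celsr1 passed the filter on low levels through nodose neurons alone, so it had to differ. For the other genes of the lists the side was not counted. The list counts, here and for glia and endothelial cells, are therefore a description and support nothing. Of 13 tested protocadherin partners and sheddases 4 were higher, with Cyfip2, a WAVE complex subunit, at a log2 change of 0.46, and 1 was lower. Of 15 tested regulators of clustered protocadherin promoters 2 were higher and 1 lower. The median log2 changes of the lists were 0.04, 0.06, 0.05 and -0.02 in that order.

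In satellite glia 3 of 10 tested catenins and partners were called higher, Ctnnal1, Ctnna1 (3.31 ± 0.266 against 0.638 ± 0.113, n = 2) and Ctnnd2, and 1 lower, Ctnna2 (log2 change -1.54), where 7.81% of all genes were called. In endothelial cells Ctnna2 was called lower too (log2 change -1.52), and Smc1a, a cohesin subunit, was the 1 regulator of 16 called higher (2.16 ± 0.998 against 0.434 ± 0.0496, n = 2), where 10.1% of all genes were called.

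For the 6 unclustered members with the highest mean level over neuron types, the genes with the most similar level over the 24 types were sought among 8802 genes, as a description of types that share their libraries. The highest Spearman correlation was 0.88 for Pcdh17 (with Fbxo10), 0.74 for Pcdh9 (with Jmjd1c), 0.80 for Cdh2 (with Pigt), 0.83 for Pcdh10 (with Arl4c), 0.79 for Pcdh1 (with Lrrc8d) and 0.81 for Cdh1 (with Magi3). Among pairs of members, Pcdh11x with Pcdh10 (0.64), Cdh22 with Cdh10 (0.62) and Cdh22 with Pcdh10 (0.61) had the highest values, and Pcdh10 with Pcdh1 (-0.53) and Cdh1 with Cdh2 (-0.52) the lowest.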

How the data were processed

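RNA of single cells of the vagal ganglia was measured in 4 libraries by 10x Genomics chemistry (Single Cell 3' v2), per the labels' protocols. Cell Ranger 2.1.1, Seurat and mm10 are named per the submitters' processing notes, and the filter on cells is not given in the sources used here. Values were deposited by the authors as natural logs. They are ln(1 + UMIs per 10000), from which whole UMIs were read back (100% of non-zero values within 0.01), and the authors also gave the mitochondrial share of each cell as a fraction, which entered no result. The series text gives 1896 cells, which is 71 above the number in the table. No doublet caller was run.

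Linear values were averaged per library and class (at least 10 cells) and tested on log2(mean + 1) by limma 3.58.1 under R 4.3.3. Tests were two-sided and held the library as a block, except between sorted and unsorted neurons. A count model had been planned; since the deposited values are normalized, it was replaced by limma, with limma-voom on the UMIs read back as an alternative. Tested genes had a mean above 0.1 in as many profiles as the smaller group holds. A call needs an adjusted p under 0.05 together with a log2 change of 1 or more in either direction. Levels per cluster need 3 cells in a library. Thinning to 10000 UMIs left out 18 nodose and 2 jugular cells. A count of 0 allows up to 3 counts. Coordinates are from GENCODE M21 (mm10), which placed 79 members by symbol. The fits were tested on simulated data, in which genes with a level above 1 were changed by a known fold. Of 100 genes changed 2-fold, 100% had an adjusted p under 0.05 in the right direction between the ganglia by limma. Between sorted and unsorted neurons 96% did, but in glia 33% and in endothelial cells 39%, so a 2-fold change can be missed there. The simulated spread was set by hand. Most tested members were under a level of 1, where no change was simulated, so these shares do not apply to them in any comparison.

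The members and lists were chosen with earlier results of these data known. Named were every called member, up to 6 per direction and comparison with an adjusted p under 0.05, the leading member of each cluster, the extremes of restriction and a set of 14 members in any case. Of the marker lists not given with the results, sympathetic markers summed to 1.33 to 2.41 in nodose and 0.0481 to 0.224 in jugular neurons, endothelial markers to 0.832 to 1.17 and 0.405 to 0.559, fibroblast markers to 0.0665 to 5.49 and 0.197 to 0.502, and immune markers to 0.0244 to 0.115 and 0.0171 to 0.13.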

Additional observations from a re-analysis of the deposited data

Results flagged for a closer look

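The difference between nodose and jugular neurons in Pcdh7 had opposite directions in the unsorted and the sorted libraries. Nodose minus jugular was 0.0456 UMIs per 10000 on average in the unsorted libraries, positive in both, and -0.157 in the sorted libraries, negative in both. This difference was not tested. Among 28 groups of 4 libraries, the level of each of the 14 tested members in each ganglion, none had a library beyond Dixon's 95% critical value, which chance passes in about 1 group of 20.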

How the results depend on the processing

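The number of called members rested on the pseudocount and on the test. With a pseudocount of 0.1 in place of 1, 7 members were called between nodose and jugular neurons (0 before; 8.38% of all genes), 10 in satellite glia (3 before; 37%), 12 in endothelial cells (1 before; 44%) and 62 over the types (7 before; 5.99%). With limma-voom these counts were 8, 14, 16 and 84, beside 13.6%, 43.2%, 49.2% and 9.91% of all genes; voom also moved the median of all genes to -0.33 in glia and -0.27 in endothelial cells. Between nodose and jugular neurons 1 member was called with median centring, 3 with equal weight to each type, 1 in the sorted libraries alone and 0 to 1 when a library was left out (1 without unsorted 1 and 1 without sorted 1). Over the types, 3 were called without the cells in the highest 5% of UMI counts, which left 12 types to fit, 11 at a minimum of 5 cells (23 types) and 3 to 7 when a library was left out.

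The number with an adjusted p under 0.05 at any fold fell at a minimum mean of 0.5, where fewer members are tested, to 4 from 10 between the ganglia, 7 from 14 in glia, 7 from 13 in endothelial cells, 53 from 112 over the types and 0 from 2 between sorted and unsorted neurons. With no filter it was 16 between the ganglia and 4 between sorted and unsorted neurons. When a library was left out, it was 10 to 11 between the ganglia, 80 to 107 over the types and 0 to 5 between sorted and unsorted neurons, with the highest count without unsorted 1 and the lowest without sorted 2. Leaving out a library in the glial and endothelial comparisons leaves 1 library and no value. Of 759 alternative values of 74 single-member changes, 727 kept their direction and side of the threshold, 32 lost an adjusted p under 0.05 and 0 reversed. Except where given, the cause was not tested. Members with few UMIs, above all the clustered ones, are measured least surely, and the part of depth in their low counts was not tested. For alpha and gamma genes the part of the shared last exons was not tested either.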
